A study of Mus musculus with 35 samples.

Results

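The small heat shock and chaperone genes described here are 8 rows of an expression table of 26127 rows, chosen by symbol: *Hspb1*, *Hspb8*, *Cryab*, *Bag3*, *Hspa1a*, *Hspa1b*, *Hsph1* and *Dnajb1*. They had been picked after their differences between *Dnmt1* knockout (KO) and control cells, and their levels in a *Dicer* KO library, had been seen. Both are therefore described for them without a test. The cells were mouse ESCs (embryonic stem cells, lines derived from the early embryo) whose total RNA was sequenced after removal of ribosomal RNA. Both copies of their *Dnmt1* gene, which encodes the enzyme that copies DNA methylation at replication, carry loxP sites and are deleted when tamoxifen induces Cre. The labels name 17 Wildtype (WT) control libraries and 17 *Dnmt1* KO libraries at days 0, 1, 3, 6, 9, 11, 17 and 25, with 2 libraries of each genotype per day and 3 at day 1. A single library came from *Dicer* KO cells, a line grown from a sorted cell after CRISPR deletion in the same loxP background, for which no day is given. The labels give the strain as E14 and the study's methods as C57BL/6, and the treatment of the control cells is not in the labels. All cells grew in serum with LIF, with or without a layer of feeder cells, and which libraries had feeders is not stated. Nothing says that the libraries of a group came from separate cultures, so errors and p-values measure only the spread between these libraries.

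Heat shock proteins are chaperones that hold or refold proteins that have lost their shape. Small heat shock proteins (HSPB1, HSPB8 and CRYAB) bind unfolded proteins without using ATP. HSP70 proteins (HSPA1A and HSPA1B) fold them in cycles of ATP use, started by J-domain proteins such as DNAJB1 and reset by nucleotide exchange factors such as HSPH1 and BAG3. BAG3 also joins HSPB8 to HSP70 and steers clients to autophagy. The classical inducer of these genes is heat shock factor 1 (HSF1), which binds repeats of the 5-base unit nGAAn in alternating orientation near the start of transcription. In ESCs some of these proteins are made without stress.

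The stretches below show where such repeats lay near the start sites of the 8 genes. They come from RefSeq on build GRCm38.p6, in which 7 of the 8 genes had an entry with 250 bases before and 50 after the start, and they are written 5′ to 3′ on the gene's strand with the matching letters in capitals. The search was for 2 units (GAANNTTC or TTCNNGAA) and for 3 units (GAANNTTCNNGAA or TTCNNGAANNTTC), and each pattern set reads the same on both strands. Positions count from the start site, with +1 as the first transcribed base.
*Hspb1*, chr5:135887789-135887858, plus strand, -130 to -61: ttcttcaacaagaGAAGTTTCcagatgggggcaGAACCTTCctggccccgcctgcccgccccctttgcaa
*Hspb8*, chr5:116422850-116422879, minus strand, -15 to 15: cagcccagaagccaggaGAAGTTTCtaggc
*Bag3*, chr7:128523603-128523632, plus strand, 21 to 50: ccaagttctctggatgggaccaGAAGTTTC
*Hspa1a*, chr17:34972217-34972286, minus strand, -130 to -61: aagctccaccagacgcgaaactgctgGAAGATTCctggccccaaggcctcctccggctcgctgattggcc
*Hspa1b*, chr17:34959299-34959368, minus strand, -130 to -61: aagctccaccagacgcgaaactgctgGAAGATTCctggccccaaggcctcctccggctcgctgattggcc
*Hsph1*, chr5:149636337-149636386, minus strand, -50 to -1: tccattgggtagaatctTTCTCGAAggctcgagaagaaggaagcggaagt
*Hsph1*, chr5:149636287-149636316, minus strand, 21 to 50: agtaaaatgctgcagaTTCTGGAAAGTTCt

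A 2-unit match was present in 15.1% of the 32851 mouse promoter entries and a 3-unit match in 0.603%. Of the 7 genes with an entry, 6 held a 2-unit match, and *Dnajb1* held none in either of its 2 entries. *Hspb1* had 2 matches, at -117 and -97. *Hspa1a* and *Hspa1b* each had 1 at -104, inside stretches of 70 bases that were identical in both genes. *Hspb8* had 1 at +3 and *Bag3* 1 at +43, both just inside the transcript. *Hsph1* alone held a 3-unit match, from +37 to +49, which overlaps 2 of its 3 2-unit matches. Counted from the start of its other entry, the same match lies from +16 to +28. The starts of the *Hspa1a* entry and of the second *Dnajb1* entry did not match the 5′ end in another gene annotation. The matching letters describe the windows and carry no evidence of binding. The windows of the 7 genes held between 13 and 41 CpG sites, against a median of 7 and an upper quartile of 20 over all entries. Those of *Bag3* (21) and *Dnajb1* (36 and 41) lay above that quartile and those of the other genes below it. Methylation was not measured in these libraries.

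*Dnmt1* RNA was the check of the labels. It lay between 14.1 and 34.8 RPKM (reads per kilobase per mega-read of the library) in the WT libraries of every day but day 6, and between 2.58 and 4.40 RPKM in the KO libraries of days 3, 9, 11, 17 and 25. At day 6 the libraries labelled WT had 3.22 and 3.40 RPKM and those labelled KO 20.2 and 20.4 RPKM, against their labels. Day 6 is therefore given as labelled and left out of means. The KO libraries of day 1 had 2.86, 3.04 and 8.13 RPKM, so *Dnmt1* RNA was already low there, and at day 0 the genotypes had 18.3 to 18.7 RPKM. For *Dicer1* the *Dicer* KO library had 4.01 RPKM, inside the 3.90 to 8.57 RPKM of the high-share WT libraries described next, so RNA did not mark that deletion. Libraries also differed in the share of reads that fell in exons of genes, which was 20.7% to 22.4% in 20 libraries (days 0, 3, 6, 9 and the first and second of day 1) and 44.8% to 49.95% in 15 (the third of day 1, days 11, 17 and 25 and *Dicer* KO). They are called low-share and high-share, and levels were compared between days only within a set. Markers of pluripotent cells were present throughout, with summed levels of 291 to 397 RPKM in low-share and 689 to 988 RPKM in high-share libraries. Depth was 24.3 to 72.1 mega-reads, and 3 reads, taken as the floor of counting error, were worth at most 0.120 RPKM for any of the 8 genes.

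**Figure D1:**
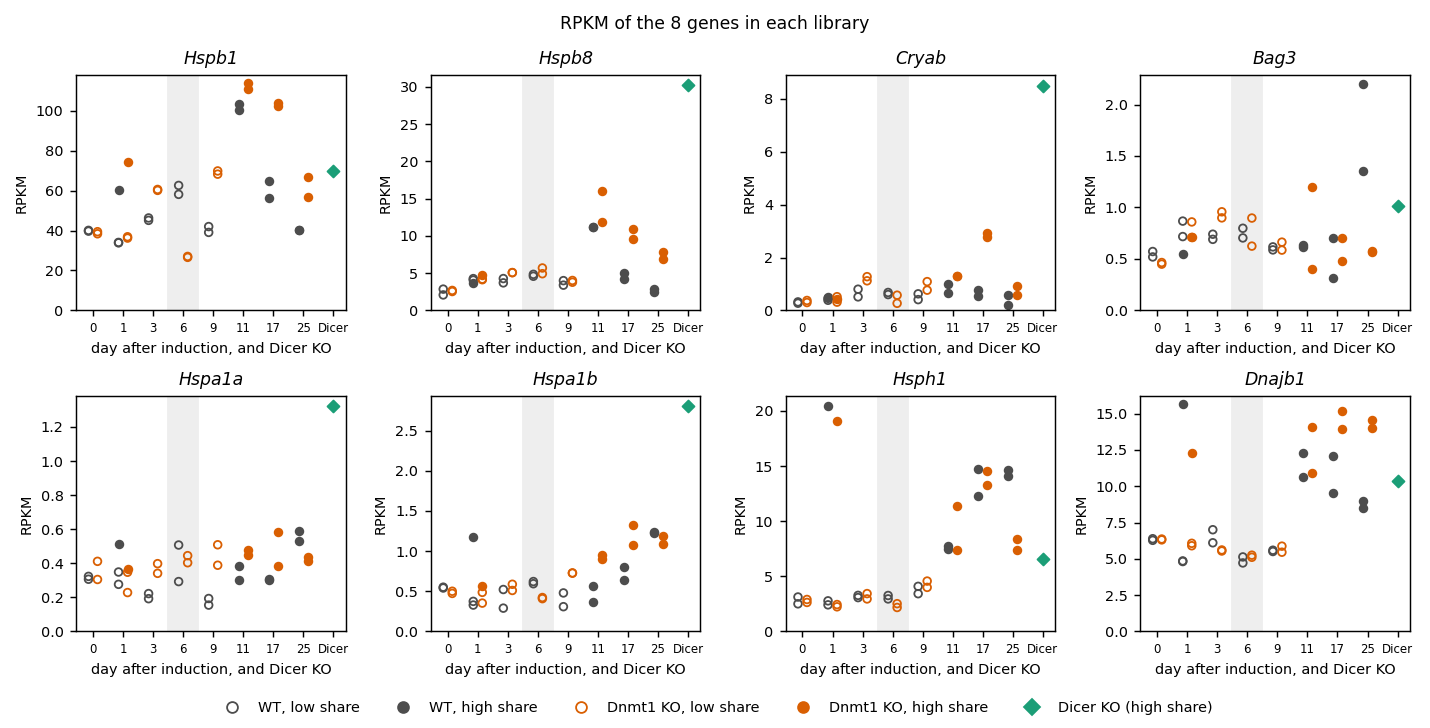
RPKM of each of the 8 genes (y axis, linear, from 0) in every library by day (x axis, evenly spaced), with WT in grey, *Dnmt1* KO in orange and the *Dicer* KO library as a green diamond. Open points are low-share and filled points high-share libraries, and the shaded band is day 6, whose labels *Dnmt1* RNA contradicts; *Hspb8* and *Cryab* in the *Dicer* KO library (30.2 and 8.51 RPKM) stand above all other libraries.

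Among the small heat shock proteins, *Hspb1* was the most abundant of the 8 genes, with 26.5 to 114 RPKM over the 34 WT and *Dnmt1* KO libraries. HSPB1 binds unfolded proteins and actin filaments. On build NCBIM37, used for all genes below, it spans chromosome 5, 136363789 to 136365433, plus strand (ENSMUSG00000004951.9). At day 0 it had 40.1 and 39.7 RPKM in WT and 38.4 and 39.4 in KO. At day 1 the libraries had 34.04, 33.8 and, in the high-share set, 60.2 RPKM in WT, and 36.9, 36.2 and 74.2 in KO. On these days the genotypes were close to each other in the low-share libraries. At day 3 the values were 45.1 and 46.3 RPKM in WT and 60.1 and 60.6 in KO, and at day 9 they were 42.0 and 39.1 in WT and 68.2 and 69.9 in KO. In both low-share days the KO libraries lay clear of WT, with a log2 difference of 0.40 at day 3 and 0.77 at day 9. At day 11 *Hspb1* had 103 and 100.4 RPKM in WT and 114 and 111 in KO. At day 17 it had 56.1 and 64.8 RPKM in WT and 103 and 104 in KO, and at day 25 40.1 and 40.4 in WT and 66.8 and 56.6 in KO. Levels fell from day 11 to day 25 in both genotypes, and KO stayed above WT on each of these days. Over days 3, 9, 11, 17 and 25 the mean log2 difference was 0.54 (SE 0.0326), with single days from 0.14 to 0.78. At day 6 the libraries labelled WT had 58.1 and 62.6 RPKM and those labelled KO 26.5 and 27.0, so the higher level again stood with the low *Dnmt1* RNA.

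*Hspb8*, whose protein works in a complex with BAG3, was the only one of the 8 genes with a log2 difference above 0 on all 8 days. It lies on chromosome 5 from 116858500 to 116872873 on the minus strand (ENSMUSG00000041548.4). This pattern is part of how the genes were chosen, and on 3 of the days the libraries of the genotypes overlapped. At day 0 it had 2.07 and 2.85 RPKM in WT and 2.67 and 2.52 in KO, at day 1 4.06, 4.26 and 3.70 in WT and 4.11, 4.19 and 4.80 in KO, and at day 9 3.38 and 3.99 in WT and 3.77 and 4.01 in KO. On these days the differences were 0.09, 0.12 and 0.08, smaller than their standard errors at days 0 and 9 (0.143) and near it at day 1 (0.116). At day 3 the values were 3.69 and 4.26 RPKM in WT and 5.06 in both KO libraries, and at day 11 they were 11.14 and 11.24 in WT and 16.0 and 11.8 in KO. The KO libraries lay above WT on both days, by 0.34 and 0.29 on the log2 scale. At day 17 *Hspb8* had 4.99 and 4.15 RPKM in WT and 9.61 and 10.9 in KO, and at day 25 2.80 and 2.46 in WT and 6.89 and 7.78 in KO. These were its widest gaps, 1.16 and 1.45 on the log2 scale. At day 6 the libraries labelled WT had 4.83 and 4.57 RPKM and those labelled KO 5.68 and 4.91, a difference of 0.17 that followed the labels and not *Dnmt1* RNA. Over the 5 days of the mean the log2 difference was 0.66 (SE 0.0638).

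*Cryab*, the gene of alpha B-crystallin, a small heat shock protein of lens and muscle, was low. It lies on chromosome 9 from 50560863 to 50564738 on the plus strand (ENSMUSG00000032060.8), had 7 to 106 reads per library and exceeded 1 RPKM in 7 of the 34 libraries. At days 0 and 1 all 10 libraries had 0.270 to 0.518 RPKM with the genotypes overlapping. At day 3 it had 0.510 and 0.80 RPKM in WT and 1.27 and 1.12 in KO, at day 9 0.406 and 0.625 in WT and 0.764 and 1.09 in KO, and at day 11 0.675 and 0.986 in WT and 1.32 and 1.28 in KO. On each of the 3 days both KO libraries lay above both WT libraries. The widest gap was at day 17, with 0.541 and 0.764 RPKM in WT and 2.78 and 2.93 in KO, a log2 difference of 1.99 (SE 0.328). At day 25 the libraries overlapped, with 0.197 and 0.591 RPKM in WT and 0.567 and 0.909 in KO, the lowest of them resting on 7 reads. At day 6 the libraries labelled WT had 0.676 and 0.597 RPKM and those labelled KO 0.266 and 0.573. The mean log2 difference over the 5 days was 1.00 (SE 0.147), and 0.53 with a pseudocount of 1 in place of 0.1.

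The co-chaperone *Bag3* did not follow *Hspb8*, the partner of its protein. It lies on chromosome 7 from 135667097 to 135690491 on the plus strand (ENSMUSG00000030847.7), and 31 of the 34 libraries had 1 RPKM or less. At day 25 it had 2.20 and 1.35 RPKM in WT and 0.571 and 0.579 in KO, a log2 difference of -1.44 (SE 0.309). At day 11 it had 0.617 and 0.632 RPKM in WT and 0.405 and 1.197 in KO, and at day 17 0.313 and 0.699 in WT and 0.698 and 0.480 in KO. The KO libraries thus lay below WT at day 25 and overlapped them at days 11 and 17. At days 0 to 9, day 6 included, all libraries of both genotypes lay between 0.449 and 0.958 RPKM. The mean over the 5 days was -0.13 (SE 0.138), and it rests on day 25, since the other 4 days had differences of 0.04 to 0.34. It was -0.27 without the second KO library of day 11, 0.0056 without the first, and -0.08 with a pseudocount of 1.

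*Hspa1a* and *Hspa1b*, the inducible HSP70 genes, were near the lower end of detection. *Hspa1a* lies on chromosome 17 from 35106144 to 35109069 on the minus strand (ENSMUSG00000091971.1) and *Hspa1b* from 35093381 to 35096183 on the same strand (ENSMUSG00000090877.2). Their transcripts share 1350 windows of 100 bases, 47.8% of those of *Hspa1a* and 49.9% of those of *Hspa1b*, so the split of reads between them is uncertain. *Hspa1a* also lies over *Gm20481*, annotated on the opposite strand from 35106857 to 35109081, and whether counting used strand is not given in the sources used here. *Hspa1a* never exceeded 1 RPKM in the 34 libraries and was the 1 gene of the 8 that did not pass the filter on low values. At day 9 *Hspa1a* had 0.193 and 0.155 RPKM in WT and 0.389 and 0.509 in KO, and *Hspa1b* had 0.479 and 0.308 in WT and 0.729 and 0.725 in KO. At day 17 *Hspa1a* had 0.30 and 0.310 RPKM in WT and 0.387 and 0.581 in KO, and *Hspa1b* had 0.807 and 0.634 in WT and 1.07 and 1.32 in KO. Both genes had their KO libraries above WT at days 9, 11 and 17. At day 25 the order was the other way, with 0.592 and 0.529 RPKM of *Hspa1a* in WT and 0.413 and 0.435 in KO, and 1.22 and 1.24 RPKM of *Hspa1b* in WT and 1.19 and 1.08 in KO. The mean log2 difference over the 5 days was 0.43 for *Hspa1a* and 0.52 (SE 0.109) for *Hspa1b*. At these low levels it depended on the pseudocount, and was 0.13 and 0.23 with a pseudocount of 1.

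*Hsph1*, an HSP110 protein that resets HSP70, followed the library set. It lies on chromosome 5 from 150416862 to 150438951 on the minus strand (ENSMUSG00000029657.8). The third day 1 libraries had 20.5 RPKM in WT and 19.1 in KO, while the first and second libraries of that day, which are low-share, had 2.41 and 2.77 in WT and 2.44 and 2.23 in KO. Its levels are therefore set side by side only within a set. Genotypes overlapped at days 0, 1, 3, 9, 11 and 17, where the log2 differences ran from -0.13 to 0.26. At day 25 it had 14.6 and 14.1 RPKM in WT and 8.37 and 7.37 in KO, a log2 difference of -0.86 (SE 0.148).

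*Dnajb1*, the J-domain partner that starts the HSP70 cycle, went the opposite way at day 25. It lies on chromosome 8 from 86132074 to 86135801 on the plus strand (ENSMUSG00000005483.8). At day 3 it had 6.11 and 7.005 RPKM in WT and 5.61 and 5.54 in KO. At day 17 it had 12.1 and 9.54 RPKM in WT and 14.0 and 15.2 in KO, and at day 25 8.50 and 9.01 in WT and 14.5 and 14.0 in KO. The KO libraries were lower by a log2 difference of -0.23 at day 3 and higher by 0.43 and 0.70 (SE 0.130) at days 17 and 25. On the other 5 days, as labelled, the libraries overlapped.

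**Figure D2:**
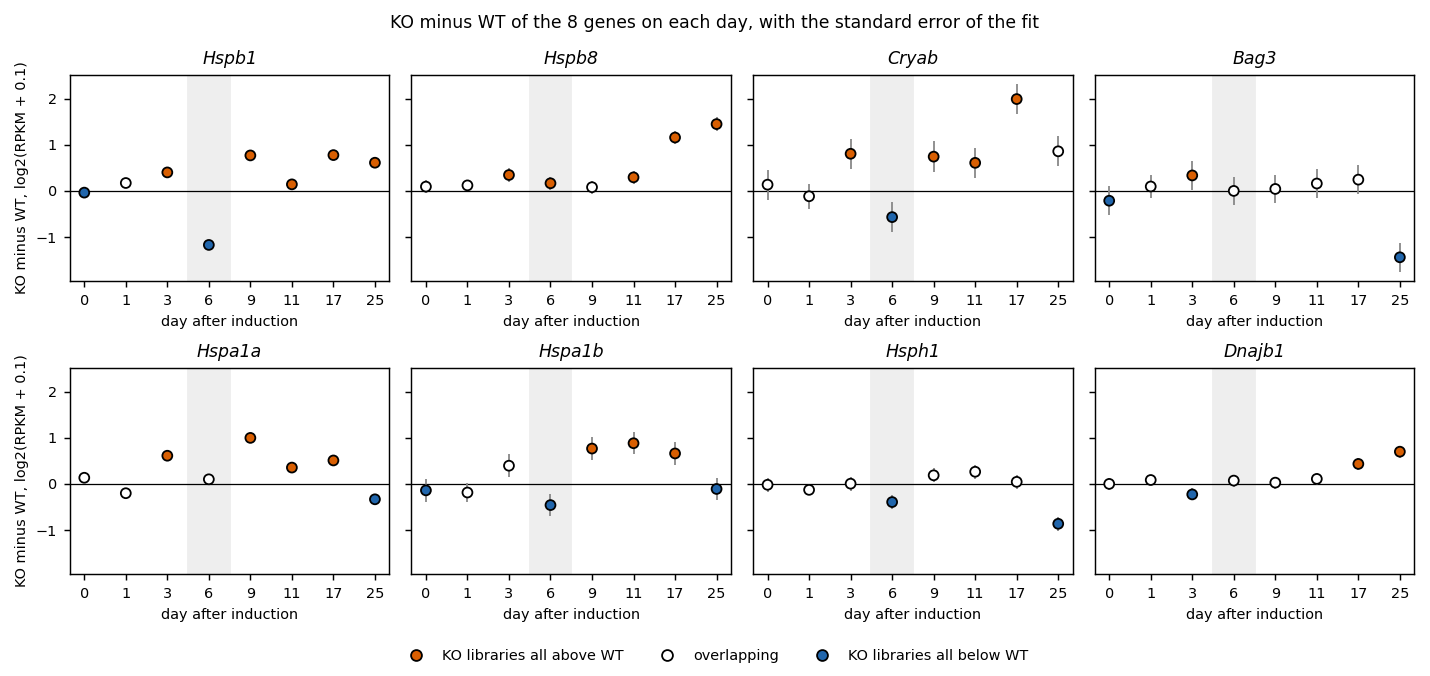
Difference between KO and WT on the log2(RPKM + 0.1) scale (y axis) on each day (x axis) for the 8 genes, as labelled. Bars are the standard error of the limma fit, absent for *Hspa1a*, which was not fitted, and colours show whether the libraries of the genotypes overlapped; *Hspb8* lies above 0 on every day, and at day 25 *Bag3* (-1.44) and *Hsph1* (-0.86) lie below 0 while *Hspb8* (1.45) and *Dnajb1* (0.70) lie above.

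Counted together, the KO libraries of 5 of the 8 genes lay above every WT library at day 3 and those of 1 below, where 34.9% and 28.5% of the 11615 genes tested did so. At day 9 the counts were 4 and 0 (39.1% and 32.8% of genes tested), at day 11 5 and 0 (31.9% and 20.2%), and at day 17 6 and 0 (42.6% and 22%). At day 25 they were 3 and 4 (49.5% and 33.4%). At day 0, before *Dnmt1* RNA had changed, they were 0 and 3 (21.5% and 16.2%), at day 1 0 and 0 (2.06% and 0.241%), and at day 6 as labelled 1 and 4 (28.4% and 41.2%). Because these differences chose the genes, nothing is read from the counts. On days 0, 1, 3, 6 (as labelled), 9, 11, 17 and 25 the 8 genes had median log2 differences of -0.01, -0.01, 0.37, -0.20, 0.46, 0.28, 0.58 and 0.25. Over the genes tested the medians were 0.01, 0.01, 0.02, -0.05, 0.02, 0.07, 0.09 and 0.13. For the same reason nothing is read from these medians.

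Markers of other cells moved on some of these days. The summed level of 15 fibroblast markers, which feeder cells would carry, was 41.5 to 42.3 RPKM in WT and 63.97 to 64.2 in KO at day 3, 44.3 to 44.5 in WT and 63.5 to 69.5 in KO at day 9, and 16.3 to 19.8 in WT and 43.3 to 44.7 in KO at day 17. At day 25 the order was opposite, 36.1 to 38.4 RPKM in WT and 12.6 to 14.98 in KO. The summed level of 10 trophoblast markers was 26.7 to 30.4 RPKM in WT and 49.4 to 53.7 in KO at day 3, and 11.996 to 13.8 in WT and 20.7 to 21.1 in KO at day 9. It was 37.1 to 39.0 RPKM in WT and 117 to 145 in KO at day 11, 61.2 to 71.7 RPKM in WT and 298 to 308 in KO at day 17, and 44.6 to 45.6 in WT and 47.8 to 50.2 in KO at day 25. The gaps of *Hspb1* and *Cryab* at days 3, 9 and 17 and of *Hspb8* at days 3 and 17 thus stood beside higher levels of both lists in KO. At day 11 the KO libraries of *Hspb1*, *Hspb8* and *Cryab* also lay above WT. The fibroblast sum of that day was 19.5 to 27.1 RPKM in WT and 13.3 to 27.0 in KO, so the genotypes overlapped. The day 25 gaps of *Hspb8* and *Hspb1* stood beside a lower fibroblast sum and a trophoblast sum near that of WT. Of 8 markers of muscle, a tissue rich in alpha B-crystallin, the sum did not exceed 2.76 RPKM in any WT or *Dnmt1* KO library. Few genes led these sums. In the high-share WT libraries the highest medians of the fibroblast list were *Fn1* (13.5 RPKM) and *Tagln* (6.2), and no other exceeded 0.976. Those of *Col1a1*, *Col1a2*, *Col3a1*, *Postn*, *Lox* and *Lum* were at most 0.0503. For the trophoblast list they were *Krt8* (26.9) and *Krt18* (19.6), with *Elf5* and *Tpbpa* at 0. The sums are therefore no measure of how many fibroblasts or trophoblast cells were present. In bulk RNA, more cells of a type and more RNA per cell cannot be told apart, and the part of such cells in the differences was not tested.

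Within WT cells, 7 of the 8 genes were tested between days. WT values also enter the difference that chose the genes, so the adjusted p of both comparisons below are not free of that choice. They describe the WT levels of these libraries, and nothing more is read from the calls. The fit was made with limma on all 34 libraries and 11615 genes. Between days 11 and 25, both high-share, *Hspb1*, *Hspb8*, *Cryab* and *Dnajb1* fell and *Hsph1*, *Hspa1b* and *Bag3* rose. *Hspb1* went from 102 ± 2.03 to 40.2 ± 0.178 RPKM (SD, n = 2; log2 change -1.34, SE 0.0729, limma adjusted p 1.523e-12). *Hspb8* went from 11.19 ± 0.0761 to 2.63 ± 0.243 RPKM (SD, n = 2; log2 change -2.05, SE 0.143, limma adjusted p 5.353e-11). *Hspb8* had the largest change of the 8 genes, to a level 0.235 times that of day 11. *Cryab* (-1.02, limma adjusted p 0.008837) and *Dnajb1* (-0.39, limma adjusted p 0.01196) also fell. *Hsph1* went from 7.64 ± 0.219 to 14.4 ± 0.377 RPKM (SD, n = 2; log2 change 0.90, SE 0.148, limma adjusted p 1.336e-05). *Hspa1b* rose by 1.26 (limma adjusted p 9.247e-05) and *Bag3* by 1.33 (limma adjusted p 0.0006136). *Bag3* exceeded 1 RPKM in only 3 of the 34 libraries, both of WT day 25 and the second KO library of day 11. It passed the filter only through the WT day 25 libraries that were called higher, and nothing is read from its call. All 7 genes tested were called, 4 lower and 3 higher, the last including *Bag3*. Of all genes tested, 33.2% were called lower and 34.7% higher. The calls of *Cryab* and *Dnajb1* were each lost when 1 of 2 libraries was left out: *Cryab* without the second library of day 11 (limma adjusted p 0.09752) or the first of day 25 (0.3082), and *Dnajb1* without the first of day 11 (0.1289) or the first of day 25 (0.07219). A model without the term for the library set lost *Hsph1* (limma adjusted p 0.4165) and *Dnajb1* (0.498), and a fit of only the groups compared lost *Cryab* (0.07523). The WT fibroblast sum was 19.5 to 27.1 RPKM at day 11 and 36.1 to 38.4 at day 25, and its part in these changes was not tested.

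Between days 0 and 9, both low-share, only *Hspb8* was called. It went from 2.46 ± 0.550 to 3.68 ± 0.430 RPKM in WT (SD, n = 2; log2 change 0.58, SE 0.143, limma adjusted p 0.009053), where 7.75% of genes tested were called higher and 7.26% lower. The call was lost without the first library of day 0 (limma adjusted p 0.1917), without the second of day 9 (0.1582) and without a term for the library set (0.3958). *Hspb1* had 39.9 ± 0.269 RPKM at day 0 and 40.5 ± 2.07 at day 9 (SD, n = 2; log2 change 0.02, SE 0.0729). *Hsph1* (0.41, limma adjusted p 0.06666), *Cryab* (0.62, limma adjusted p 0.2141) and *Hspa1b* (-0.41, limma adjusted p 0.274) did not pass.

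The other genes of the chaperone network were a list of 118 symbols in 10 families, of which 99 passed the filter and could be tested between KO and WT. In the mean of days 3, 9, 11, 17 and 25, 41 rose and 21 fell in KO, with limma adjusted p below 0.05, and 37 did not pass. Over all 11615 genes tested the shares were 37.4% higher and 20.4% lower, and the median log2 difference was 0.04 for the list and 0.06 for all genes. The share of the list was close to that of all genes in both directions. With each library centred on the median of the genes tested, 29 of the list rose and 30 fell, where 26.2% and 31.6% of all genes did so, so the balance of rises and falls depends on the scaling. By day, 12 rose and 7 fell at day 3 (7.4% and 3.81% of all genes tested), 23 and 12 at day 9 (16.7% and 10.5%), 21 and 13 at day 11 (22.7% and 12.3%), 36 and 18 at day 17 (28.9% and 11.4%), and 57 and 27 at day 25 (39.4% and 25.9%). Leaving out 1 library gave 10 to 19 higher and 7 to 9 lower at day 9, the fewest without the first KO library of that day. A model without the term for the library set called 13 higher and 6 lower in the mean, 2 and 1 at day 9 and 8 and 9 at day 25. Of the 42 network genes with a call in the mean that are named here, it kept 16 and lost 26, which are given with their families.

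Chaperones of the endoplasmic reticulum rose in 11 of 17 genes and fell in 2 (9 and 3 with median centring). *Serpinh1*, the collagen chaperone HSP47, had 19.5 ± 0.860 RPKM in WT and 40.0 ± 0.567 in KO at day 9, and 12.3 ± 0.588 and 29.2 ± 3.17 at day 25 (SD, n = 2), a mean log2 difference of 0.82 (SE 0.0407, limma adjusted p 8.313e-14). It was called higher on each of the 5 days. *Sdf2l1* (0.48) and *Dnajb11* (0.47), partners of the luminal HSP70, also rose, while *Hsp90b1*, the HSP90 of the reticulum, fell by 0.23 and *Herpud1*, a degradation factor, by 0.26 on the log2 scale. *Serpinh1* is also expressed by fibroblasts. Their marker sum was higher in KO at days 3, 9 and 17 and overlapped at day 11. It was lower in KO at day 25, where the difference of *Serpinh1* was 1.24.

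Of the other heat and proteotoxic stress genes, 10 of 13 rose and 1 fell (9 and 1 with median centring). *Gadd45b*, a growth arrest gene, went from 4.04 ± 0.207 RPKM in WT to 16.2 ± 1.17 in KO at day 17 (SD, n = 2), and its mean log2 difference was 1.04 (SE 0.0740, limma adjusted p 5.466e-11). *Sqstm1*, the autophagy receptor p62 that takes clients handed on by BAG3 and HSPB8, had 18.1 ± 0.256 RPKM in WT and 48.2 ± 4.02 in KO at day 17, and 18.6 ± 0.319 and 46.9 ± 0.587 at day 25 (SD, n = 2). Its mean log2 difference was 0.76 (SE 0.0326, limma adjusted p 5.721e-15). *Ier5* rose by 0.61, and *Txnrd1*, thioredoxin reductase, fell by 0.22 on the log2 scale, a call lost without the library set term. Among the 7 partners of BAG3 in selective autophagy, 2 rose and 2 fell (1 and 4 with median centring, which lost *Wipi1*). *Optn*, the receptor optineurin, fell from 1.18 ± 0.00467 RPKM in WT to 0.525 ± 0.0527 in KO at day 9 (SD, n = 2) and was lower on each of the 5 days (mean log2 difference -1.01, SE 0.0537, limma adjusted p 2.875e-13). *Gabarapl1* fell by 0.28 on the log2 scale, and *Map1lc3b* and *Wipi1*, genes of the autophagosome, rose by 0.21 and 0.19, both lost without that term. *Wipi1* had at most 0.886 RPKM in WT and at most 1.06 in KO. It passed the filter only through KO libraries, and nothing is read from its call.

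In the HSP70 and HSP110 family 3 of 6 rose and 2 fell (2 and 2 with median centring). *Hspa8*, the constitutive HSP70, rose by 0.31 on the log2 scale, *Hspa13* by 0.23 and *Hspa4* by 0.07, while *Hspa2* fell by 0.23 and the mitochondrial *Hspa9* by 0.18. With median centring *Hspa4* had a log2 difference of -0.0072 and was not called. Without the library set term none of these 5 genes was called, and *Hspa2* was also lost without any 1 of 4 libraries (limma adjusted p 0.06073 to 0.07211) and *Hspa4* without any 1 of 13 (0.0509 to 0.1056). In the HSP40 family 5 of 15 rose and 3 fell (3 and 5 with median centring, *Dnajb2* among those lost), led by *Dnaja4* (0.75, higher on each of the 5 days), *Dnajb14* (0.34) and *Dnajb2* (0.29), against *Dnajc7* (-0.28), *Dnajb12* (-0.25) and *Dnaja1* (-0.20). Without the library set term only *Dnaja4* of these 6 was called, and *Dnajb2* was also lost without the first WT library of day 9 (limma adjusted p 0.05333). *Dnaja4* had at most 0.822 RPKM in WT and at most 1.15 in KO, so it passed the filter only through KO libraries. Nothing is read from its call or from its place among the rises. In the BAG and nucleotide exchange family 1 of 8 rose (*Grpel1*, 0.16, lost with median centring) and 3 fell (*Bag6* -0.36, *Grpel2* -0.15 and *Bag4* -0.07). Of these 4, *Bag6* alone was called without the library set term. It rests on day 25, when it had 12.1 ± 1.07 RPKM in WT and 2.92 ± 0.335 in KO (SD, n = 2). Of HSP90 and its co-chaperones 3 of 16 rose and 6 fell (1 and 7 with median centring). *Ppid* (-0.33), *Ptges3* (-0.21) and *Fkbp4* (-0.18) fell, and *Fkbp5* (0.21), *Hsp90aa1* (0.10) and *Stub1* (0.10) rose, the last 2 not with median centring and none of the 6 called without the library set term. *Hsp90aa1* was also lost without the second KO library of day 25 (limma adjusted p 0.05367).

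Chaperonins, the barrel-shaped folding machines, gave opposite counts on different days. At day 25 9 of 10 rose and none fell, where 39.4% and 25.9% of all genes tested did so. Among the 9 were the mitochondrial *Hspd1* (187 ± 1.199 RPKM in WT and 369.7 ± 9.49 in KO, SD, n = 2, log2 difference 0.98) and *Hspe1* (1.06). At day 17 none rose and 7 fell, where 28.9% and 11.4% of all genes tested did so. Of the 7, *Cct7* had a log2 difference of -0.23. In the mean 2 rose and 1, *Cct7* (-0.10), fell (1 and 4 with median centring, which lost *Hspe1*), and without the library set term *Hspd1*, *Hspe1* and *Cct7* were not called. The difference between the days was not tested. Of 6 heat shock factors and their regulators, 3 rose and 1 fell (2 and 1 with median centring, which lost *Hsbp1*, as did the model without the library set term). *Hsf2bp*, a binding partner of HSF2 also known from meiosis, had 2.83 ± 0.0715 RPKM in WT and 12.8 ± 1.41 in KO at day 25 (SD, n = 2) and the largest mean log2 difference of the list, 1.09 (SE 0.0498, limma adjusted p 1.673e-14). *Hdac6* (0.46) and *Hsbp1* (0.21) rose, and *Hsf2* itself fell by 0.33 on the log2 scale. *Hspb11* rose by 0.42 and was the 1 gene listed under small heat shock proteins that could be tested. The other 6 listed did not pass the filter, so nothing is read for that family.

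**Figure D3:**
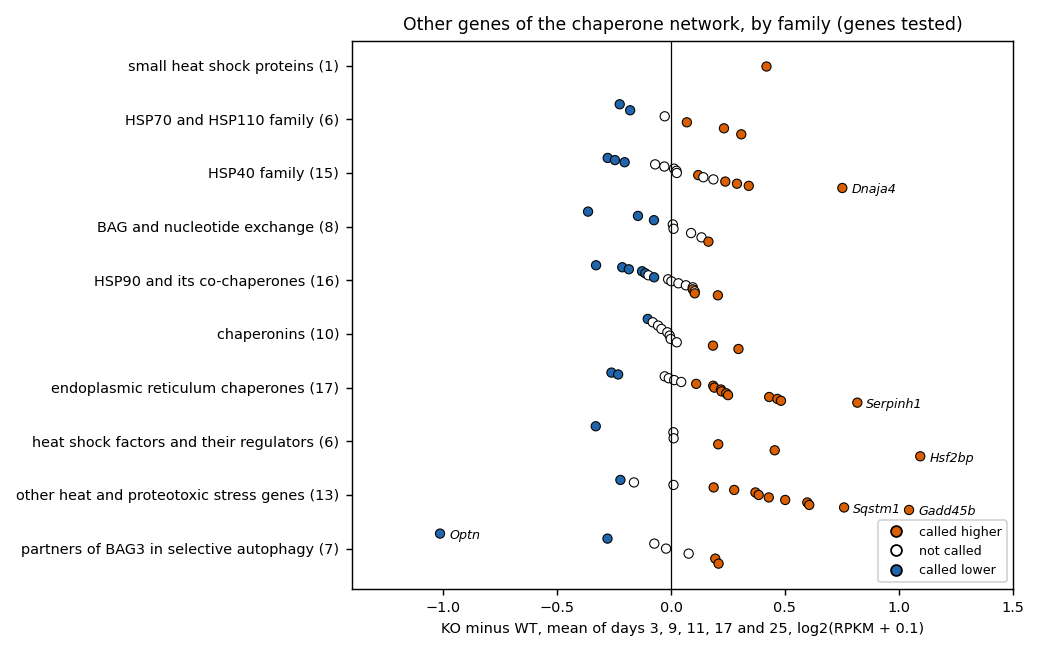
Difference between KO and WT in the mean of days 3, 9, 11, 17 and 25 on the log2(RPKM + 0.1) scale (x axis) for the 99 tested genes of the chaperone network outside the 8, by family (y axis, number tested in parentheses). Orange points were called higher (41) and blue lower (21) with limma adjusted p below 0.05, open points were not called, and genes past 0.7 are named.

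*Dicer1* encodes the nuclease that makes small RNAs. The library labelled *Dicer* KO, whose *Dicer1* RNA lay within the WT range, was compared with the 7 high-share WT libraries, and with 1 library there is no replicate check and no test. *Hspb8* had 30.2 RPKM there and 2.46 to 11.24 RPKM in the 7 WT libraries, 2.69 times the highest of them. *Cryab* had 8.51 RPKM, from 260 reads, and 0.197 to 0.986 RPKM in WT, 8.63 times the highest. *Hspa1b* had 2.81 RPKM against 0.361 to 1.24 in WT, and *Hspa1a* 1.33 against 0.30 to 0.592. Each of these 4 genes exceeded every one of the 7 libraries by over 1 log2 unit. Of 12055 genes with a value above 1 RPKM in any of the 8 libraries, 9.81% also did, while 3.54% lay as far below. *Cryab* and *Hspa1a* are among the 12055 only through the *Dicer* KO library. Because these levels were part of what chose the genes, nothing is read from the count. *Hspa1b* and *Hspa1a* were close to the line of 1 log2 unit, at 1.12 and 1.04. With a pseudocount of 1 or with median centring 2 genes passed that line. *Hspb1* (70.01 RPKM against 40.1 to 103), *Bag3* (1.02 against 0.313 to 2.20) and *Dnajb1* (10.3 against 8.50 to 15.7) lay within the WT range. *Hsph1* had 6.57 RPKM, below the 7.48 to 20.5 of the WT libraries, by 0.18 log2 units from the lowest.

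All 15 fibroblast markers were above every one of the 7 WT libraries in the *Dicer* KO library, with a summed level of 343 RPKM against 16.3 to 38.4. Among them *Acta2* and *Tagln*, genes of contractile actin bundles, had 118 and 121 RPKM, against at most 1.21 and 11.7 in WT. Of 10 pluripotent markers 1 was above and 3 were below all 7, and their sum was 689 RPKM against 695 to 965. *Pou5f1*, a core factor of ESCs, had 128 RPKM against 161 to 260 in WT, and *Nanog*, another, had 107 against 30.7 to 161. Of 8 muscle markers 2 were above and 2 below all 7, and they summed to 2.13 RPKM, with *Myod1*, *Actc1* and *Myh7* at 0. Trophoblast markers summed to 130 RPKM against 37.1 to 71.7, of which the keratin genes *Krt8* and *Krt18* had 90.9 and 32.7 RPKM, and 3 of 10 were above all 7, with *Elf5* and *Tpbpa* at 0. The part of these cells in the levels of *Hspb8* and *Cryab* was not tested. Of 100 other chaperone network genes with a value above 1 RPKM, 11 exceeded all 7 WT libraries by over 1 log2 unit and 1 lay as far below. Over the 12055 genes the shares were 9.81% and 3.54%, so the count above was near that of all genes and nothing is read from it. Higher were, among the named, *Ier5* (4.20 RPKM against 0.521 to 0.747) and *Gadd45b* (16.97 against 3.89 to 6.24). *Ier5* exceeded 1 RPKM in the *Dicer* KO library alone of the libraries compared. The 1 below was *Fkbp5*, a co-chaperone of steroid receptors, at 2.22 RPKM against 6.92 to 11.7.

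**Figure D4:**
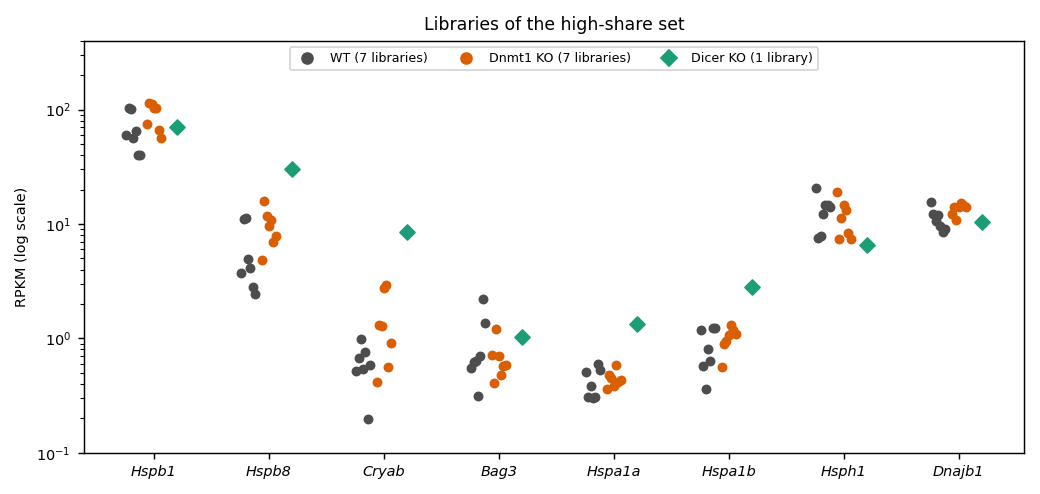
RPKM on a log axis (y) of the 8 genes (x) in the high-share libraries, with 7 WT in grey, 7 *Dnmt1* KO in orange and 1 *Dicer* KO as a green diamond. *Hspb8*, *Cryab*, *Hspa1a* and *Hspa1b* lie above all 14 other libraries in *Dicer* KO, and *Hspb1*, *Bag3* and *Dnajb1* lie within the range of WT.

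Lastly, the genes whose pattern over the libraries was most like that of each of the 8 were listed, by Pearson's r over the 34 libraries of log2 values from which the mean of the day had been taken, with the third day 1 pair centred on its own mean. The libraries share genotype and day, so r is a description and has no p. Once the day means are removed, the difference between genotypes that chose the 8 genes stays in the values. The r with *Dnmt1* and those among the 8 genes therefore partly restate that difference. *Hspb1* was closest to *Mt1*, a metallothionein that binds zinc (r 0.97), *Rpp25* (0.95) and *Colec12* (0.95), and had r -0.84 with *Dnmt1*. *Hspb8* was closest to *Wbp5* (0.94), *Ephx2* (0.93) and *Cotl1* (0.93), with r -0.61 for *Dnmt1*, and *Cryab* to *Vnn1* (0.89), *Dennd1b* (0.88) and *Rcan1* (0.88), with -0.66. *Bag3* was closest to *Man2a1* (0.92), *Ubap2l* (0.92) and *Crebbp* (0.91), and *Hsph1* to *Celf1* (0.92), *Ube4a* (0.91) and *Dnajc13* (0.91). These 2 had r of 0.20 and 0.13 with *Dnmt1*. *Hspa1a* was closest to *Gm20481* (0.87), the gene that overlaps it, then to *Shisa5* (0.77) and *Bet1l* (0.75). *Hspa1b* was closest to *Lzic* (0.85), *Ankrd56* (0.85) and *Sys1* (0.83), and *Dnajb1* to *Rps28* (0.90) and *D17Wsu104e* (0.88). Among the 8 genes themselves the highest r were between *Bag3* and *Hsph1* (0.79), *Hspb8* and *Dnajb1* (0.74) and *Hspb1* and *Cryab* (0.68), while *Hspa1a* and *Hspa1b* had 0.59. In the other direction, *Bag3* and *Dnajb1* had r -0.70.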

How the data were processed

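Per the study's methods and the submitters' processing notes, stranded total RNA reads were trimmed (Trim Galore 0.3.5), aligned to mouse build NCBIM37 (TopHat2 2.0.11), filtered on mapping quality and quantified per gene in SeqMonk, and genes were called with DESeq2 and an intensity filter. The deposited table holds RPKM made by the authors, linear and with no further scaling, although the methods name log2 RPM. In each library at least 99.9% of values below 20 reads were whole reads within 0.1 once exon lengths of the same build were applied, which gave the depths and gene-read shares. No columns held other samples. Intervals and floors cover counting error only.

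The 8 genes, the chaperone and marker lists, the tests and the boundary of 35% between library sets were chosen with earlier results of these data known. All genes that exceeded 1 RPKM in 2 or more of the 34 libraries other than *Dicer* KO were fitted with limma 3.58.1 in R 4.3.3 on log2(RPKM + 0.1), which understates changes of low genes, with group means and 1 term for the library set, and called at a Benjamini-Hochberg adjusted p below 0.05. Named network genes were, in each family, up to 3 largest rises and 3 largest falls called in the mean, and for each of the 8 genes the 3 most like it, of which 1 is not reported here. *Cct7* and *Fkbp5* at single days or in *Dicer* KO fall under the same rule, and *Mt1* is also a network gene. Alternatives changed the pseudocount, filter, scaling, library set term, libraries and pairing, and limma's voom was run on recovered reads. The fit was tested on simulated data. Replicate numbers did not pair the samples. Python 3.11.15, numpy 2.4.6, pandas 2.3.3 and matplotlib 3.10.9 were used otherwise. Promoters came from RefSeq, and *Cryab* had no entry.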

Additional observations from a re-analysis of the deposited data

Results flagged for a closer look

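In 6 of the 8 genes, the KO libraries lay wholly above WT on one day and wholly below on another, and the day of the largest difference in each direction is given. The difference between days was not tested. *Hspb1* had 0.78 on the log2 scale at day 17 and -1.17 at day 6 as labelled. *Cryab* had 1.99 at day 17 and -0.57 at day 6 as labelled, and the small values below 0 on other days were -0.04 for *Hspb1* at day 0 and -0.12 for *Cryab* at day 1. *Hspa1b* had 0.88 at day 11 and -0.46 at day 6 as labelled. *Dnmt1* RNA contradicts the labels of day 6, the only day on which the KO libraries of *Cryab* lay wholly below WT. *Bag3* had 0.34 at day 3 and -1.44 at day 25, *Hspa1a* 1.00 at day 9 and -0.33 at day 25, and *Dnajb1* -0.23 at day 3 and 0.70 at day 25. With 2 libraries a genotype, such a pattern in 1 direction is common, as the shares beside the counts of the 8 genes show. The share of all genes with both directions was not counted, and these differences chose the genes. Nothing is therefore read from the count of 6.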

How the results depend on the processing

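Without a term for the library set, 13 chaperone network genes were called higher and 6 lower in the mean of days, 2 and 1 at day 9 and 8 and 9 at day 25, and *Hspb8* was not called in WT between days 0 and 9 (0 genes higher). Leaving out the third day 1 pair, which leaves no need for the term, gave 43 and 20 in the mean, 25 and 12 at day 9 and 57 and 27 at day 25. With RPKM above 1 in at least 17 libraries, 1 member rose in WT between days 11 and 25, since fewer of them were tested. In *Dicer* KO, 2 genes passed 1 log2 unit above all WT libraries with a pseudocount of 1, and 2 with median centring. Under median centring *Hspa4* had a log2 difference of -0.0072, and the network called 29 higher and 30 lower in the mean. Leaving out 1 library gave 10 to 19 network genes higher and 7 to 9 lower at day 9, 40 to 48 and 18 to 23 in the mean, and 53 to 57 and 23 to 27 at day 25. Without the first KO library of day 9 the counts were 10 and 7. For the members in WT it gave 0 to 1 higher between days 0 and 9, and 2 to 4 lower between days 11 and 25.

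The replicate numbers did not pair the samples: deviations of equal numbers had r from -0.16 to 0.26 and exceeded 0.1 on 1 of 8 days. With each day and number as a replicate block, 41 network genes were called higher and 20 lower in the mean, 20 and 10 at day 9 and 60 and 27 at day 25, and with the number as a block 1 member was called between days 0 and 9 and 3 higher and 4 lower between days 11 and 25.

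The mean KO minus WT difference of *Hspb1*, *Hspb8*, *Cryab*, *Hspa1a*, *Hspa1b* and *Dnajb1* stayed above 0 whichever library was left out (alternatives chosen after seeing the data), while *Bag3* ran from -0.27 to 0.01. These differences chose the genes, so their sign is no support for a rise and shows only the weight of single libraries. With day 6 as labelled the mean difference was 0.25 for *Hspb1*. Depth limits *Cryab* (7 to 106 reads) and *Hspa1a* (11 to 107 reads), and 2 libraries a group limit all values.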
